A study of Rattus norvegicus with 35 samples.

Results

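Livers of 12 rats fed a triazole fungicide at the highest dietary level of the study were compared, as 1 pooled group, with livers of 7 untreated rats. The pool held 4 animals at 2000 ppm myclobutanil, 4 at 2500 ppm propiconazole and 4 at 1800 ppm triadimefon, the arrays with deposited values in those groups, which are 12 of the 32 arrays with values in the series. The remaining 13 arrays are of animals at 500 ppm of the same compounds. The Wistar Han IGS rats, treated through the feed, were exposed from gestation day 6 to postnatal day 92. Each Affymetrix Rat Genome 230 2.0 array held the RNA of a single animal. Controls received 0 ppm. The samples include 35 animals, of which 3 have no values (1 at 2000 ppm myclobutanil and 2 at 500 ppm propiconazole). The labels name neither sex nor litter, so animals of a group may be siblings. The extraction protocol names testis, whereas sample titles and labelling protocol name liver. On each of the 19 control and high-level arrays, the median probe set of 13 hepatocyte marker genes lay between the 99.8 and 99.9 percentile. For 16 testis markers it lay between 28.9 and 64.7. The samples were taken as liver, though the arrays at 500 ppm were not part of this check.

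Triazole fungicides block the fungal lanosterol demethylase, a cytochrome P450 of sterol synthesis whose mammalian counterpart is Cyp51. In rodent liver, drug-like foreign compounds can activate the receptors CAR, PXR and AhR. These switch on enzymes that oxidise the compound (phase I), enzymes that attach a sugar acid or glutathione to the product (phase II), and transporters that carry it out of the cell. The compounds share the triazole ring and differ elsewhere: myclobutanil has a nitrile group, triadimefon a ketone, and in propiconazole the oxygens form a cyclic ketal. Pooling them asks which liver transcripts differ from controls in the same direction for all 3.

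Each probe set has 1 deposited score on each array, without a stated scale, log base or centring. Differences below are therefore differences of scores and are not log2 fold changes. The pooled difference is the mean of the 3 high-level group means minus the control mean, given ± its standard error (SE) from a limma fit of all 7 groups. A probe set was called where its Benjamini-Hochberg adjusted p over 31042 probe sets was under 0.05 and each compound's own difference had the same sign. In bulk tissue, fewer cells of a type and less RNA per cell cannot be told apart.

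As a reading of RNA integrity, the 5′ score of GAPDH and β-actin was subtracted from their 3′ score and the mean taken. This 3′–5′ difference was 0.50 to 2.12 in controls, 0.52 to 0.73 with myclobutanil, 0.53 to 0.67 with propiconazole and 1.16 to 1.86 with triadimefon. Controls 4 to 7 and triadimefon replicates 2 to 4 had a GAPDH difference above 0.9, as had 0 of the 8 myclobutanil and propiconazole arrays. Controls 5 to 7 and the same 3 triadimefon animals also have animal numbers above 3000. Array medians lay between 0.00528 and 0.0585 and array standard deviations between 0.704 and 1.02. Some called genes named below had control means under these medians and so near background. Among them are Ahr (-0.0045), Gadd45b (-0.030), Abcc3 (-0.057), Cyp7b1 (-0.112), Cyp26a1 (-0.167) and Cyp2b21 (-0.286). In single myclobutanil arrays, 12.6 to 29.8% of all probe sets lay below all 7 controls and 1.90 to 7.68% above them, whereas in triadimefon arrays 8.07 to 11.9% lay below and 13.7 to 26.6% above. The part of these array properties in the results was not tested beyond the alternative fits given below.

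The pooled test called 247 probe sets, and 244 of them had the same sign in all 3 compounds. No compound had to pass on its own. Of the 44 named items, only Cyp2b and 1379888_at passed with myclobutanil alone (adjusted p = 0.0317 and 0.0236, limma). The myclobutanil value was 0.0768 for Aldh1a1, 0.173 for Cyp1a1, 0.331 for App and 0.915 for Por. A call therefore does not show a response to each compound. Of the 31042 tested, 113 were higher (0.364%) and 131 lower (0.422%) in the pool with the same sign in all 3 compounds. They represent 89 genes with a higher and 92 genes with a lower probe set, and 15 and 34 probe sets carry no gene symbol. The rises were led by enzymes and transporters of foreign-compound metabolism, and the falls by Scd, Apoa4 and a probe set without a symbol. Most changes were small: the median rise was 0.261 and the median fall -0.254, against -0.0151 over all probe sets. A difference of 0.5 or more was reached by 20 of the risen probe sets and one of -0.5 or less by 16 of the fallen. Without an adjustment, 1104 probe sets were higher and 3192 lower at p under 0.05. The counts of 113 and 131 became 218 and 516 without control 3, 78 and 69 without control 4, 73 and 76 without control 7, and 407 and 2082 without triadimefon. In the last of these only the compounds kept had to share a sign, a looser rule. With the treated arrays as 1 group in a 2-group fit they were 40 and 75.

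**Figure D1:**
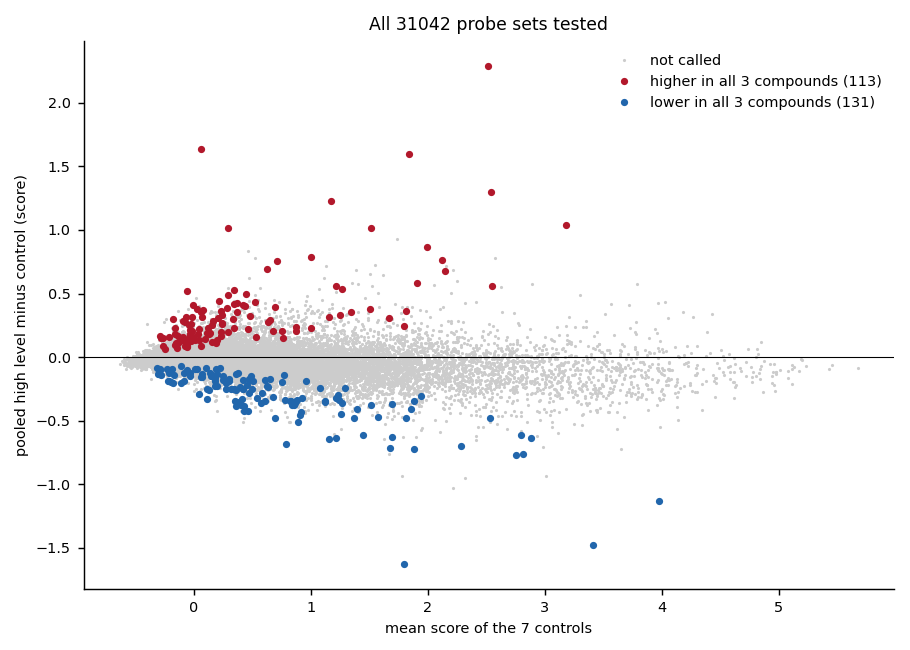
Pooled high level minus control against the mean score of the 7 controls, 1 point per probe set, with red for the 113 probe sets higher and blue for the 131 lower in all 3 compounds. The Cyp2b probe set at 2.29 and Cyp1a1 at 1.63 lie highest, and 1379888_at at -1.62 and Scd at -1.48 lowest.

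The separation was complete for a minority of them. In 20 probe sets all 12 treated arrays lay above all 7 controls (0.0644% of those tested), and 19 of these were among the 113. In 17 probe sets all 12 lay below all controls (0.0548%), and 15 of these were among the 131. The median called probe set had 10 treated arrays above all controls for rises and 9 below all controls for falls. Among the myclobutanil arrays, replicate 5 stood closest to the controls, with 52 of the 113 risen probe sets above all controls and 87 of the 131 fallen below, against 75 to 83 and 114 to 124 in the other myclobutanil arrays. Triadimefon arrays had 91 to 103 of the risen probe sets above all controls and 58 to 77 of the fallen below. Without myclobutanil replicate 5 the counts of calls were 106 and 140.

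The phase I enzymes held the largest rises. The probe set shared by Cyp2b1 and Cyp2b2, the phenobarbital-inducible P450s used as a marker of CAR activity, gave the highest value of all. Cyp2b scored 2.14 to 3.03 in the controls, with a median of 2.6. With myclobutanil, Cyp2b scored 4.19, 4.48, 4.71 and 3.55. With propiconazole it scored 4.48, 5.39, 4.35 and 4.73, and with triadimefon 6.28, 5.16, 5.46 and 4.86. The groups did not overlap, and the pooled difference was 2.29 ± 0.235 (adjusted p = 2.42e-06). All 13 arrays at 500 ppm, which scored 3.36 to 5.21, lay above the controls too. The share of all probe sets with such a separation at 500 ppm was not counted. In the same limma fit, pooled 500 ppm against the controls gave 1 probe set with an adjusted p under 0.05. Cyp2b1 and Cyp2b2 cannot be told apart by this probe set. Cyp2b21, another member of the family, rose by 0.15 ± 0.028 from a control mean of -0.286 (adjusted p = 0.0063).

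Cyp1a1, the P450 used as a marker of AhR activity, scored -0.112 to 0.342 in the controls. Cyp1a1 scored 1.23, 1.45, 1.08 and -0.259 with myclobutanil, 1.72, 1.69, 1.13 and 2.09 with propiconazole, and 1.51, 3.12, 2.6 and 2.95 with triadimefon. Of the treated livers, 11 were above all controls, whereas myclobutanil replicate 5 was below all of them. The pooled difference was 1.63 ± 0.274 (adjusted p = 0.00255). Without the arrays of a high 3′–5′ difference it was 1.29 with an adjusted p of 0.119. Ahr, the receptor itself, scored -0.190 to 0.226 in controls and a median of 0.436 in the pool, a rise of 0.41 ± 0.079 (adjusted p = 0.00787). Ahr replicate 2 of triadimefon, at -0.194, was below all controls. Both Ahr probe sets were near background, with control means of -0.0045 and -0.198. The second had a difference of -0.02 ± 0.018 (adjusted p = 0.669). Of 9 measured AhR target genes, 2 rose (Cyp1a1 and Ahr itself) and 0 fell, against 0.499% of all genes called higher and 0.521% lower. A probe set of Tiparp, a further gene induced by AhR, is not in that count. It was called lower, with a difference of -0.25, and is named after its values were seen. The shares of all genes stand against every list count below. Cyp1a2 had a difference of 0.08 and Nqo1 of 0.69, and neither passed (adjusted p = 0.89 and 0.25). The list's median was 0.0379, against -0.0172 over all genes.

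**Figure D2:**
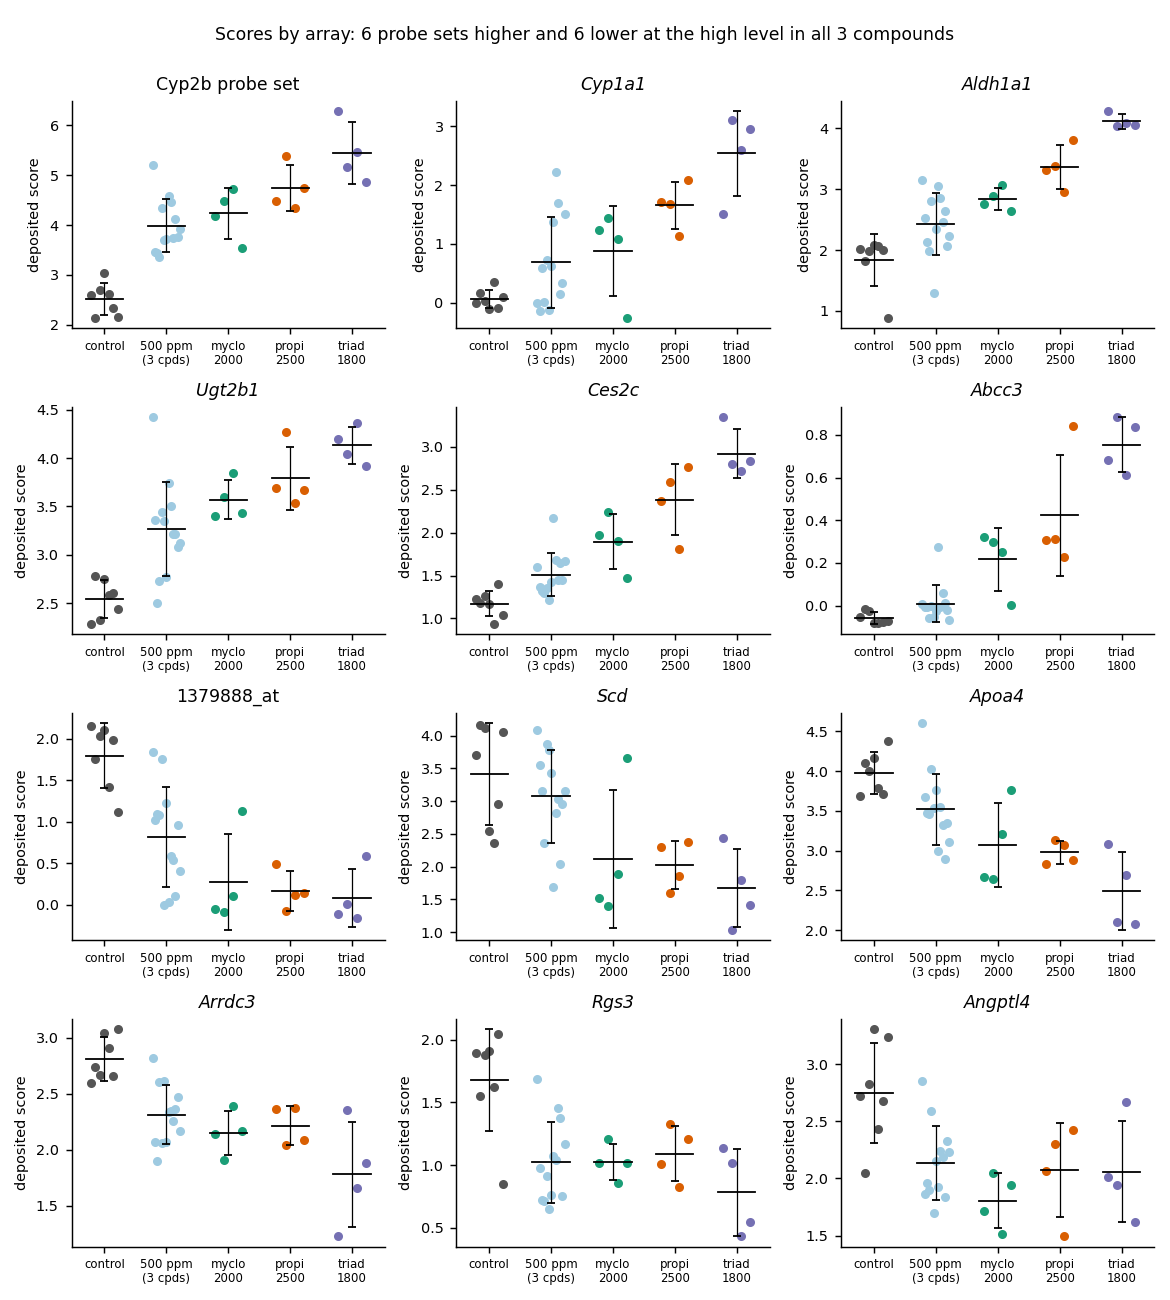
Deposited score of 12 probe sets on each array, with 1 point per animal, a line at the mean and a bar of 1 SD. For Cyp2b the 12 high-level arrays lie between 3.55 and 6.28 and the controls between 2.14 and 3.03, while for Rgs3 control replicate 7, at 0.849, lies among the treated arrays.

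Other oxidising and hydrolysing enzymes moved with them. Aldh1a1, a retinaldehyde and aldehyde dehydrogenase, scored 0.888 to 2.09 in the controls and 2.64 to 4.29 in the pool, with a median of 3.35. All 12 treated arrays lay above the controls, and the difference was 1.60 ± 0.194 (adjusted p = 3.76e-05). Ces2c, a carboxylesterase that cleaves esters and amides, scored 0.936 to 1.40 in controls. Ces2c scored 1.97, 2.25, 1.90 and 1.47 with myclobutanil, 2.37, 2.6, 1.81 and 2.76 with propiconazole, and 3.35, 2.79, 2.72 and 2.83 with triadimefon. These ranges did not overlap with the controls, and the difference was 1.23 ± 0.124 (adjusted p = 2.42e-06). Ephx1, the microsomal epoxide hydrolase that opens reactive epoxides, scored 2.89 to 3.55 in controls and 3.56 to 5.77 in the pool, a rise of 1.04 ± 0.210 (adjusted p = 0.0111). The Ephx1 call was lost in the 2-group fit (adjusted p = 0.0545).

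P450s need electrons and heme, and 1 gene of each supply was called. Por, the reductase that hands electrons to microsomal P450s, rose by 0.54 ± 0.127 (adjusted p = 0.0372) and Alas1, the first enzyme of heme synthesis, by 0.56 ± 0.134 (adjusted p = 0.0396). The rise was uneven: Por scored 1.29, 1.48, 1.38 and 1.04 with myclobutanil, inside the control range of 0.965 to 1.66, and 2.80, 2.44, 2.01 and 2.39 with triadimefon, above it. Alas1 scored 2.53 to 2.85 with myclobutanil and 3.23 to 4.06 with triadimefon, against 2.37 to 2.74 in controls. Without triadimefon, the differences were 0.23 for Por and 0.30 for Alas1, and neither passed. A second Por probe set had 0.44 ± 0.140 with all arrays and did not pass (adjusted p = 0.154). The Por call ended without control 1, 5, 6 or 7, myclobutanil 2, 3 or 4, propiconazole 1, 2 or 4, or triadimefon 2, 11 of 19 single omissions (adjusted p up to 0.0992). The Alas1 call ended without control 2, 4, 5, 6 or 7, myclobutanil 3, 4 or 5, propiconazole 2 or 4, or triadimefon 1 or 3, which are 12 (adjusted p up to 0.102). Of 19 measured genes of electron supply and heme, these 2 rose and 0 fell, with a median of -0.0415.

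Of 17 measured phase I genes linked to CAR and PXR, 5 rose (Aldh1a1, Ces2c, Ephx1, Alas1 and Por) and 0 fell, and 14 had a positive difference. The list's median was 0.219. Its members that missed the threshold include Cyp3a23-3a1, the P450 used as a marker of PXR activity, which scored 3.70 to 5.01 in controls and 3.92 to 5.84 in the pool. The groups overlapped and the difference was 0.31, with a 95% interval from -0.26 to 0.89 (adjusted p = 0.623). Cyp3a23-3a1 was -0.16 ± 0.370 with myclobutanil and 0.98 ± 0.370 with triadimefon, and it turned to -0.02 without triadimefon. Over 34 alternative fits its difference ran from -0.02 to 0.74. It passed the pooled test in 4 of them, among which was quantile normalisation, so the miss depends on the processing. Cyp2c6v1 had a difference of 0.34 and Cyp2c11 of 0.06 (adjusted p = 0.58 and 0.94). Of 18 measured nuclear receptors and their partners, 0 passed in either direction, against 0.499% of all genes called higher and 0.521% lower. Among these 18, Nr1i3 (CAR) had 0.25 and Nr1i2 (PXR) 0.19.

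Conjugating enzymes rose in a few members. Ugt2b1, which attaches glucuronic acid, scored 2.28 to 2.78 in controls and 3.40 to 4.37 in the pool, without overlap, and rose by 1.29 ± 0.175 (adjusted p = 0.000158). Ugt2a1 rose by 0.43 ± 0.077 from a control median of 0.375 (adjusted p = 0.00496), with all 12 treated arrays above the controls. A probe set shared by 8 Ugt1a genes, 1387759_s_at, rose by 0.76 ± 0.163 (adjusted p = 0.0185), chosen after its values were seen. Among 17 measured glucuronosyl- and sulfotransferases, 2 rose, and Sult2b1, a sterol sulfotransferase, fell by 0.23 ± 0.049 (adjusted p = 0.020). Their median was 0.0660.

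Glutathione transferases couple glutathione to electrophiles. Gsta3 scored 0.0076 to 0.691 in controls and 0.660 to 2.38 in the pool, where 10 of 12 arrays lay above all controls. Its difference was 1.02 ± 0.167 (adjusted p = 0.00209), while Gstm3 rose by 0.38 ± 0.076 (adjusted p = 0.0115). Of 19 measured transferases these 2 rose and 0 fell, Gstm4 reaching 0.56 without passing, and the median was 0.0555. Akr7a3, an aldo-keto reductase that detoxifies aflatoxin aldehyde, scored 1.66 to 2.54 in controls and 2.07 to 3.84 in the pool, a rise of 0.87 ± 0.181 (adjusted p = 0.0144). Without propiconazole the Akr7a3 difference was 0.78 and no longer passed (adjusted p = 0.0824). Of 19 measured targets of NRF2, the regulator of antioxidant genes, 3 rose (Ephx1, Gsta3 and Akr7a3) and 0 fell, with a median of 0.120. Srxn1 had 0.23, Gsr 0.26 and Hmox1 -0.12, none of which passed. Ephx1 also stands on the list of phase I genes.

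Transporters that load or unload the hepatocyte rose in part. Abcc3, which exports glucuronides to the blood, scored -0.081 to -0.016 in controls. Abcc3 scored 0.320, 0.297, 0.249 and 0.0013 with myclobutanil, 0.308, 0.314, 0.227 and 0.843 with propiconazole, and 0.682, 0.883, 0.614 and 0.838 with triadimefon. Every treated array lay above every control, myclobutanil replicate 5 by little, and the difference was 0.52 ± 0.061 (adjusted p = 2.60e-05). Abcb1a, the P-glycoprotein efflux pump, rose by 0.35 ± 0.075 (adjusted p = 0.0172), and its other probe set by 0.32 ± 0.065 (adjusted p = 0.0136). Slco1a1, an uptake carrier for organic anions, rose by 0.37 ± 0.084 (adjusted p = 0.033). The related carrier Slco1a4 gave 1.01 ± 0.187 on 1 probe set (adjusted p = 0.0056), named after its values were seen, and 0.49 on the brighter one that represents the gene (adjusted p = 0.31). Of 17 measured transporters, 3 rose and 0 fell, with a median of 0.0304.

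Promoter windows of 250 bases before to 50 after the start site were read from RefSeq (build GRCr8) for genes of this set, 70 of the 89 risen and 78 of the 92 fallen genes having an entry. Those below are shown because they belong to the leading P450 probe set, to the leading glutathione transferase, to further risen genes with the same motif, and to the P450 reductase. Capitals mark GCGTG, the core bound by AhR, in Cyp2b1 and Cyp2b2, TGACNNNGC, the antioxidant response core, in Gsta3, Pir and Htatip2, and AGGTCA, the nuclear receptor half-site, in Por. Both strands were searched for each, and these motifs do not contain one another. In each window only the motif named for that gene is marked, so unmarked letters can hold the others. GCGTG, on either strand, also occurs unmarked in the Por and Pir windows.
Cyp2b1: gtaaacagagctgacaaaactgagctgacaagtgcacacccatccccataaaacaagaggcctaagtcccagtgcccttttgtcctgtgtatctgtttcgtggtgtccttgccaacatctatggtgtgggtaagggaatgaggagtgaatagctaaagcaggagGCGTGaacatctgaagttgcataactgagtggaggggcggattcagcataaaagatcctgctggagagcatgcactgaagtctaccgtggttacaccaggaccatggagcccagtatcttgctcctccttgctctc
Cyp2b2: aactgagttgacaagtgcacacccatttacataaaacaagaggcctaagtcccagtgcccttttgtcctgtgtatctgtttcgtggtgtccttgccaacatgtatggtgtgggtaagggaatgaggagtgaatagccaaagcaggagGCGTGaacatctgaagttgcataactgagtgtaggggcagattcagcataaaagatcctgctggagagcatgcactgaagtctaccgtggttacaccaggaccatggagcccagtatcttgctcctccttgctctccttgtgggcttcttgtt
Gsta3: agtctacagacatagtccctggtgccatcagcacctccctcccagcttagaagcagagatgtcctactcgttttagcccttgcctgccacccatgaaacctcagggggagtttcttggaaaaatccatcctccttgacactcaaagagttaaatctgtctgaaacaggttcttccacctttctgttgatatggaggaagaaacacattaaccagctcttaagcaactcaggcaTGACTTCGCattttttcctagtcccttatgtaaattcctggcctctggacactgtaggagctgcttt
Pir: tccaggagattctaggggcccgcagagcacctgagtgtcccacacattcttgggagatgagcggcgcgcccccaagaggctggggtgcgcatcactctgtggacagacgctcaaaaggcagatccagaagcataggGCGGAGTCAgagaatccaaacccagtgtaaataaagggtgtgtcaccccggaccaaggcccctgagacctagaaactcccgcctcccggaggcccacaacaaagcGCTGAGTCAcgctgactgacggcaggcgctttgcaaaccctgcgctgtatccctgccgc
Htatip2: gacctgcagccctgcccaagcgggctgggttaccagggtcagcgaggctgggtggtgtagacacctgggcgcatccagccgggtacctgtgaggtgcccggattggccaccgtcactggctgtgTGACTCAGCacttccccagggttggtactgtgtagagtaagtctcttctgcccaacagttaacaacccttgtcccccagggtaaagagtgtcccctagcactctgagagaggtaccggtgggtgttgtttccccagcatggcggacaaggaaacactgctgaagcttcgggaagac
Por: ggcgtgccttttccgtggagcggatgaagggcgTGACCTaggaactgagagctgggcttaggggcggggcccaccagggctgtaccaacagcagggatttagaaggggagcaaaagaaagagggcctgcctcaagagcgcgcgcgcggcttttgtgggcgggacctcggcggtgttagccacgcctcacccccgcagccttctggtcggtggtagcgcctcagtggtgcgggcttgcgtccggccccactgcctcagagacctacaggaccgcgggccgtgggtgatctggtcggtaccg

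Cyp2b1 lies at chr1:90645869-90646168 and Cyp2b2 at chr1:90722031-90722330, both on the plus strand, with GCGTG from -86 and -103 relative to the start. Gsta3 (chr9:31154739-31155038, plus) has TGACNNNGC from -17, Htatip2 (chr1:108609945-108610244, plus) from -126, and Pir (chrX:33851000-33851299, minus) 2 matches, from -114 and -9. Por (chr12:26635760-26636059, minus) has AGGTCA from -217. Pir encodes pirin, an iron-binding nuclear protein, and rose by 0.41 ± 0.090 (adjusted p = 0.024). Htatip2, an oxidoreductase, rose by 0.39 ± 0.048 with all 12 treated arrays above the controls.

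The shares of promoters with these motifs were as follows. GCGTG was found in 51.4% of risen and 52.6% of fallen promoters, against 45.8% of the promoters of genes on the array and 29.7% of all 33469 promoters. TGACNNNGC was found in 12.9% and 12.8%, against 14.4% of genes on the array and 12.1% of all promoters. AGGTCA was found in 17.1% (12 of 70) and 7.69% (6 of 78), against 12.7% and 16.2%. These shares describe letters in a window and carry no test.

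No gene of cholesterol synthesis was called in the same direction for all 3 compounds. Cyp51, the mammalian counterpart of the fungicides' target, scored 2.67 to 3.74 in controls. Cyp51 scored 2.64, 2.85, 2.70 and 2.85 with myclobutanil, 3.10, 3.38, 2.62 and 3.17 with propiconazole, and 4.08, 3.83, 4.33 and 3.96 with triadimefon. The 4 triadimefon livers lay above all controls and those of the other compounds within or below the control range. The pooled difference was 0.17, with a 95% interval from -0.24 to 0.58 (adjusted p = 0.717), and -0.21 without triadimefon. Over 34 alternative fits it ran from -0.21 to 0.44 and passed the pooled test in 1. A second Cyp51 probe set had 0.23, with unlike signs between compounds, and did not pass (adjusted p = 0.244). Sqle, the squalene epoxidase 2 steps earlier in the textbook pathway, had 0.33 ± 0.077 (adjusted p = 0.036) and Acat2, which makes acetoacetyl-CoA, 0.28 ± 0.060 (adjusted p = 0.0199). Both passed the pooled test but had unlike signs: Sqle was -0.02 with myclobutanil and 0.76 with triadimefon, and Acat2 -0.03 and 0.77. The pooled Acat2 value missed the threshold without control 2 (adjusted p = 0.0503), and that of Sqle without control 1, 6 or 7, myclobutanil 2 or 3, propiconazole 1 or 4, or triadimefon 3 or 4 (adjusted p up to 0.114). Of 19 measured genes of the pathway, 0 were called with the same sign, 16 had a positive difference and the median was 0.137.

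Genes of fatty acid and sugar handling were among the largest falls. Scd, the stearoyl-CoA desaturase that makes monounsaturated fatty acids, scored 2.36 to 4.16 in controls, with a median of 3.71. Scd scored 1.51, 1.41, 1.89 and 3.66 with myclobutanil, 2.29, 1.60, 1.85 and 2.38 with propiconazole, and 2.44, 1.03, 1.80 and 1.42 with triadimefon. Of the treated livers, 9 lay below all controls, and myclobutanil replicate 5 lay near the control median. The difference was -1.48 ± 0.338 (adjusted p = 0.0299). The call was lost without control 2 or 7, myclobutanil 2, 3 or 4, or propiconazole 2, with differences from -1.35 to -1.45 and adjusted p from 0.0529 to 0.0905.

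Pklr, the liver pyruvate kinase that ends glycolysis, scored 1.96 to 2.72 in controls and 0.971 to 2.17 in the pool. In 11 of 12 arrays it lay below all controls, and it fell by 0.70 ± 0.124 (adjusted p = 0.00443), while its second probe set had -0.45 (adjusted p = 0.0958). Pc, the pyruvate carboxylase that feeds gluconeogenesis, fell by 0.41 ± 0.080 (adjusted p = 0.00867). Fatty acid and triglyceride synthesis had 25 measured genes, of which 0 rose and 2 fell, namely Pklr and Scd. Fasn had -0.52, Acly -0.43 and Srebf1 -0.32, none of which passed, and the median was -0.0517. Of 23 measured genes of glucose metabolism, 2 fell (Pklr and Pc) and 0 rose. Slc2a5, the fructose carrier, fell by 0.28 ± 0.047 (adjusted p = 0.0026).

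Apoa4, an apolipoprotein of triglyceride-rich particles, scored 3.68 to 4.38 in controls. It scored 2.67, 2.64, 3.21 and 3.76 with myclobutanil, 2.84, 3.13, 3.08 and 2.88 with propiconazole, and 3.09, 2.10, 2.69 and 2.08 with triadimefon. Apart from myclobutanil replicate 5, all lay below the controls, and Apoa4 fell by 1.13 ± 0.172 (adjusted p = 0.000822). It was the 1 called gene among 19 measured apolipoproteins and assembly genes, whose median was -0.117. Angptl4, an inhibitor of lipoprotein lipase, scored 2.04 to 3.31 in controls and 1.49 to 2.67 in the pool and fell by 0.77 ± 0.172 (adjusted p = 0.0249), with 7 of 12 arrays below all controls. Without control 4 or control 7 the Angptl4 difference was -0.68 or -0.69 and missed the threshold (adjusted p = 0.0858 and 0.0835).

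Among 32 measured PPARα targets and genes of fatty acid oxidation, 2 fell (Angptl4 and Cyp4a1) and 1 rose (Cyp4a8), with a median of -0.0812. Cyp4a1, a fatty acid hydroxylase, fell by 0.61 ± 0.145 (adjusted p = 0.0366), and Cyp4a8, another member of that subfamily, rose by 0.75 ± 0.145 (adjusted p = 0.00787). Cyp4a8 was 0.508 to 1.03 in controls and 0.741 to 2.15 in the pool, and its other probe set rose by 0.49 ± 0.090 (adjusted p = 0.00559). Cyp4a1 lost its call without control 4, 5 or 7, myclobutanil 2, 3 or 4, propiconazole 2, 3 or 4, or triadimefon 2 or 3, which are 11 of 19 arrays (adjusted p up to 0.105). It was 3.22 in triadimefon replicate 1, above all controls. Cpt1a had -0.03 and Ehhadh -0.27, and neither passed.

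Of 20 measured genes of lipid droplets and fatty acid binding, 1 rose and 1 fell. Cidea, which helps droplets fuse, scored 0.561 to 0.708 in controls and 0.878 to 2.01 in the pool, without overlap, and rose by 0.69 ± 0.119 (adjusted p = 0.00338). Fabp5, a fatty acid carrier, fell by 0.63 ± 0.124 (adjusted p = 0.00867), its difference being -0.77 with myclobutanil, -0.79 with propiconazole and -0.34 with triadimefon. Plin2, a droplet coat protein, fell by 0.25 ± 0.058 on a probe set that does not represent the gene (adjusted p = 0.036). Nceh1, a cholesteryl ester hydrolase, rose by 0.38 ± 0.055 with all 12 arrays above the controls (adjusted p = 0.0003). In bile acid synthesis and transport, Cyp7b1, of the alternative pathway, fell by 0.20 ± 0.041 (adjusted p = 0.011) and was the 1 called gene of 17, while Cyp7a1 had 0.28 (adjusted p = 0.66).

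**Figure D3:**
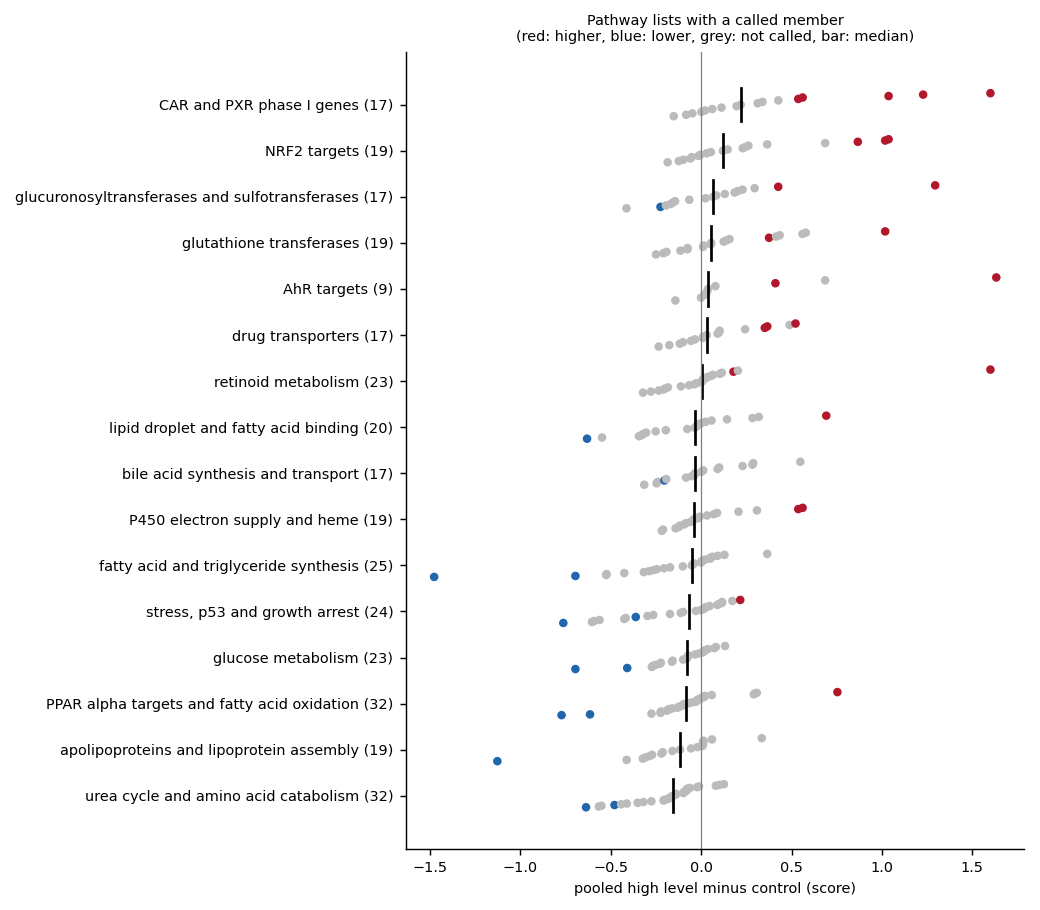
Pooled high level minus control for each measured gene of the 16 pathway lists with a called member, 1 point per gene, the number measured in brackets and a bar at the list's median. The phase I list has the highest median, 0.219, and the list of the urea cycle and amino acid catabolism the lowest of those shown, -0.156.

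Amino acid catabolism held 2 called genes of 32 measured, both lower, with a median of -0.156. Hal, which starts histidine breakdown, scored 2.54 to 3.30 in controls and 1.88 to 2.96 in the pool and fell by 0.64 ± 0.142 (adjusted p = 0.0249). Without the arrays of a high 3′–5′ difference Hal had -0.30 (adjusted p = 0.388), and it also lost its call without control 2, 4, 5 or 7 (adjusted p from 0.0508 to 0.0838). Glul, the glutamine synthetase of cells around the central vein, fell by 0.48 ± 0.114 (adjusted p = 0.0393), and the call ended without control 2, 4, 5, 6 or 7, myclobutanil 2, 3 or 4, propiconazole 1, 3 or 4, or triadimefon 2 or 3 (adjusted p up to 0.135). The other Glul probe sets had -0.19 and 0.23, neither of which passed. In retinoid metabolism, Cyp26a1, which clears retinoic acid, rose with Aldh1a1. Cyp26a1 rose by 0.18 ± 0.039 (adjusted p = 0.0217) near background, and lost its call without control 4, 5, 6 or 7 (differences from 0.17 to 0.18, adjusted p from 0.0507 to 0.0647). These were 2 of 23 measured genes, with a median of 0.00699.

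The lowest difference of all belonged to 1379888_at, a probe set without a gene symbol, chosen after its values were seen. It scored 1.12 to 2.16 in controls, -0.053, -0.082, 0.101 and 1.13 with myclobutanil, 0.497, -0.079, 0.115 and 0.144 with propiconazole, and -0.104, 0.010, -0.162 and 0.595 with triadimefon. Apart from myclobutanil replicate 5, all treated arrays lay well below the controls, and 1379888_at fell by 1.62 ± 0.194 (adjusted p = 3.38e-05). The per-compound differences of 1379888_at were -1.52, -1.63 and -1.72. Another probe set without a symbol, 1377015_at, fell by 0.72 ± 0.161 (adjusted p = 0.0249), a call that was lost without control 5, 6 or 7 (adjusted p up to 0.0856).

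Arrdc3 and Rgs3 were among the larger falls. Arrdc3, an arrestin-like adaptor, scored 2.59 to 3.08 in controls and 1.23 to 2.39 in the pool, without overlap, and fell by 0.76 ± 0.127 (adjusted p = 0.0023), though a second and dimmer Arrdc3 probe set had -0.06 (adjusted p = 0.90). Rgs3, which ends G-protein signals, scored 1.55 to 2.05 in 6 controls and 0.849 in control 7, against 0.433 to 1.33 in the pool. Rgs3 fell by 0.71 ± 0.148 (adjusted p = 0.0137), and by 0.85 without control 7, while its 2 probe sets near background had -0.03 and 0.01. Phlda3, a p53 target, fell by 0.36 ± 0.076 (adjusted p = 0.015). Gadd45b, a stress-inducible growth arrest gene, rose by 0.22 ± 0.043 (adjusted p = 0.00871). Its difference was 0.49 with triadimefon, 0.06 with myclobutanil and 0.09 with propiconazole, and the pooled value was 0.08 without triadimefon (adjusted p = 0.248). Of 24 measured genes of stress, p53 and growth arrest, 1 rose and 2 fell, with a median of -0.0648.

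Several further falls in regulatory genes are named here after their values were seen. Il33, an alarmin cytokine, fell by 0.61 ± 0.107 and 0.47 ± 0.095 on its 2 probe sets (adjusted p = 0.0037 and 0.011). Crem, a cyclic AMP-responsive transcription factor, fell by 0.46 ± 0.075 with all 12 arrays below the controls (adjusted p = 0.0021). Klf10, a TGF-β-inducible factor, fell by 0.36 ± 0.071 (adjusted p = 0.0083), and Adora2b, an adenosine receptor, by 0.38 ± 0.073 (adjusted p = 0.0080). The Crem differences were -0.49, -0.40 and -0.48 for myclobutanil, propiconazole and triadimefon, and those of Klf10 -0.40, -0.34 and -0.35.

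Another 3 of the largest falls were in genes on no list. Mtmr7, a phosphoinositide phosphatase, scored 0.547 to 1.21 in controls and -0.180 to 0.447 in the pool and fell by 0.68 ± 0.118 (adjusted p = 0.00338). Dmxl2, which helps assemble the vesicle proton pump, scored 0.894 to 1.78 against 0.355 to 0.718 and fell by 0.63 ± 0.103 (adjusted p = 0.00194). In both, no treated array reached the control range. Lrtm2, a leucine-rich repeat membrane protein, fell by 0.64 ± 0.117 (adjusted p = 0.00496), with 11 of 12 arrays below all controls.

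Rises outside the lists included App, Ddc and Scpep1. App, the amyloid precursor protein, scored 1.97 to 2.27 in controls, 2.32, 2.46, 2.40 and 2.35 with myclobutanil, 2.62, 2.88, 2.33 and 2.78 with propiconazole, and 3.73, 3.32, 3.53 and 3.13 with triadimefon. No treated array overlapped the controls, and App rose by 0.68 ± 0.118 (adjusted p = 0.00373). A second App probe set rose by 0.79 ± 0.077 (adjusted p = 2.42e-06) and the other one had 0.40 (adjusted p = 0.0609). Without triadimefon the first had 0.37 and missed the threshold (adjusted p = 0.0632). Scpep1, a lysosomal carboxypeptidase, scored 0.989 to 1.31 in controls and 1.5 to 2.1 in the pool and rose by 0.56 ± 0.084 (adjusted p = 0.000659). Ddc, the aromatic amino acid decarboxylase, scored 1.77 to 2.00 against 2.05 to 3.62 and rose by 0.58 ± 0.138 (adjusted p = 0.0379), yet lost its call without control 2, 4, 5, 6 or 7, any 1 myclobutanil array, propiconazole 1, 2 or 4, or triadimefon 3, 13 of 19 single omissions (adjusted p up to 0.0984). A second and dimmer Ddc probe set had 0.10 ± 0.035 and did not pass (adjusted p = 0.199).

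The 3 compounds were given at unlike dietary levels, so their differences stand side by side and are not compared. For Cyp2b they were 1.72 ± 0.309 with myclobutanil at 2000 ppm, 2.22 ± 0.309 with propiconazole at 2500 ppm and 2.93 ± 0.309 with triadimefon at 1800 ppm. For Aldh1a1 they were 1.0, 1.53 and 2.28 (each ± 0.255), and for Abcc3 0.27, 0.48 and 0.81 (each ± 0.080). Among genes with another order, Ugt2a1 had 0.48, 0.52 and 0.28, Ahr 0.42, 0.47 and 0.35, and Cyp4a8 0.64, 1.03 and 0.58. For the falls, Scd had -1.30, -1.39 and -1.75, Apoa4 -0.90, -0.99 and -1.48, Mtmr7 -0.59, -0.73 and -0.73, and Glul -0.65, -0.62 and -0.17. These comparisons share the 7 control animals.

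**Figure D4:**
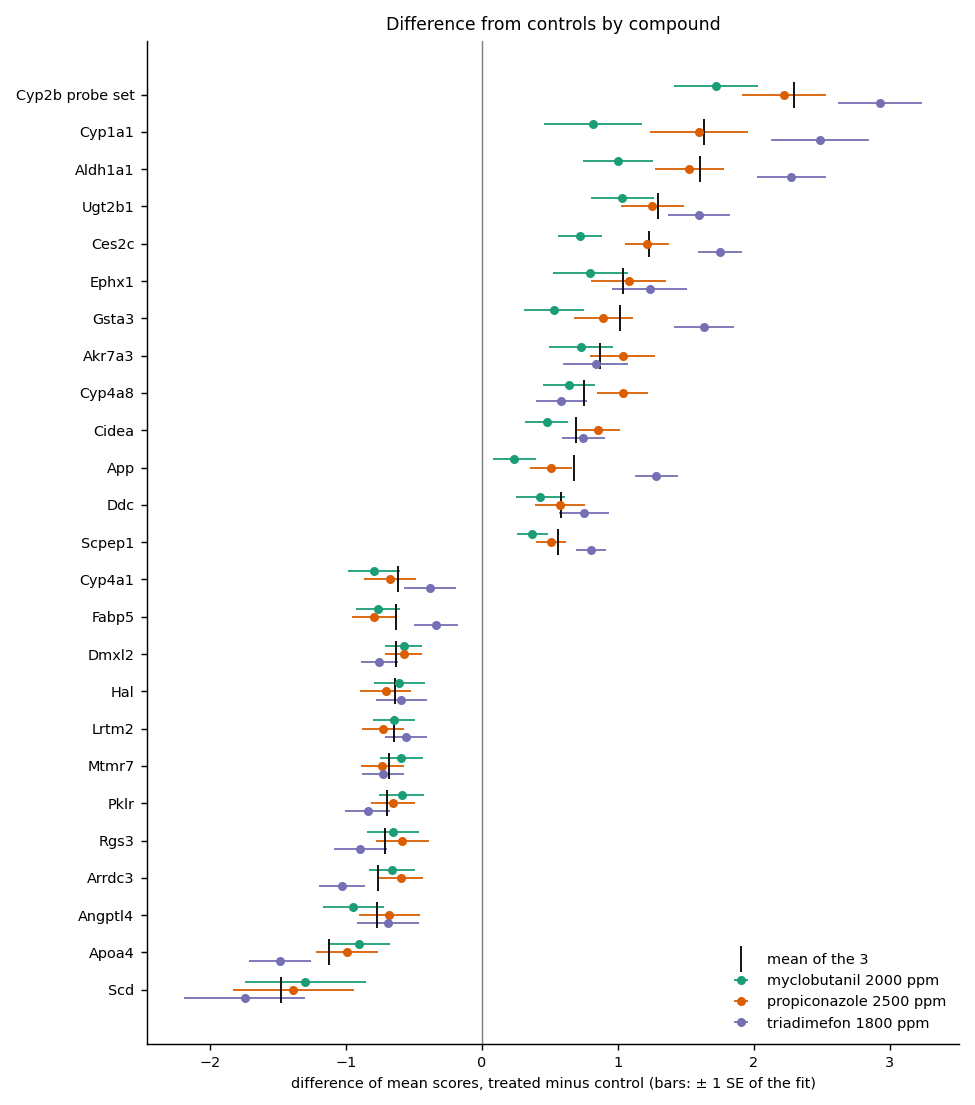
Difference from the controls for each compound at its high level, with bars of 1 SE, for the Cyp2b probe set and the 12 largest rises and 12 largest falls among genes, with a tick at the mean of the 3. All points of a row lie on 1 side of 0 by the rule of selection, and for Cyp2b they lie at 1.72, 2.22 and 2.93.

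Many pathways had no called member, where 0.499% of all genes were called higher and 0.521% lower. At such shares, a count of 0 in lists of this size says nothing particular about the pathway. Of 24 measured genes of the unfolded protein response 0 were called, 2 had a positive difference and the median was -0.159. Among 36 nuclear subunits of oxidative phosphorylation 0 were called, with a median of -0.151. The same held for 27 cell cycle genes (median 0.00636), 24 acute phase proteins (-0.0895), 29 complement and coagulation genes (-0.120), 23 interferon-stimulated genes (0.0480), 23 genes of steroid hormone metabolism (-0.00341), 12 of thyroid hormone handling (-0.0724) and 23 of the growth hormone axis (-0.0442). The median over all genes was -0.0172. A miss of the threshold does not show that these genes were equal between groups.

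Markers of other cell types were followed beside these results. Of 13 measured hepatocyte markers 0 were called, and their mean score was 3.90 to 5.12 in controls and 3.77 to 5.49 in the pool. Of 14 Kupffer cell and macrophage markers 0 were called, with a mean of 0.992 to 1.45 in controls and 1.03 to 1.60 in the pool. Triadimefon arrays held the upper end, at 1.31 to 1.60, as they did for 18 stellate cell and fibroblast markers (0.677 to 0.870, against 0.575 to 0.686 in controls, 0 called). The hepatocyte mean was highest there too, at 4.33 to 5.49 with triadimefon against 3.77 to 4.35 with myclobutanil. That of 12 endothelial markers was 0.923 to 1.13 with triadimefon and 0.830 to 1.04 in controls. Of 9 biliary markers, 2 had a positive difference, and the median was -0.00691. Among them Epcam, a surface protein of bile duct cells, rose by 0.40 ± 0.088 (adjusted p = 0.0209), and 0 others were called. The mean of these 9 was 0.173 to 0.287 in controls, 0.161 to 0.235 with myclobutanil, 0.182 to 0.243 with propiconazole and 0.310 to 0.377 with triadimefon. Epcam had 0.25 without triadimefon and missed the threshold (adjusted p = 0.0883), as it did without control 4 or 7 (0.39 and 0.38, adjusted p = 0.0587 and 0.0631). Cxcl9, an interferon-inducible chemokine, rose by 0.43 ± 0.068 (adjusted p = 0.0011), named after its values were seen. The part of cell composition in these results was not tested.

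Against the animals at 500 ppm of the same compounds, the high level was higher in 31 probe sets (0.0999% of 31042) and lower in 0 (0%). Without an adjustment, 1137 were higher and 264 lower at p under 0.05, by the same limma fit. The largest rise among the genes called against 500 ppm was that of Aldh1a1, which scored 1.30 to 3.16 at 500 ppm, and was 1.04 ± 0.165 higher at the high level (adjusted p = 0.00398). Ces2c was 0.88 ± 0.106 higher (adjusted p = 0.000104), Gsta3 0.71 ± 0.142 (adjusted p = 0.040) and App 0.56 ± 0.101 (adjusted p = 0.0157). Abcc3, which scored -0.067 to 0.273 at 500 ppm, was 0.45 ± 0.052 higher (adjusted p = 9.21e-05). Cyp2b had 0.82 ± 0.200 and Cyp1a1 1.01 ± 0.234, and neither passed (adjusted p = 0.155 and 0.0983). For the falls, Scd had -1.12 ± 0.288, Apoa4 -0.66 ± 0.146 and Rgs3 -0.03 ± 0.126 (adjusted p = 0.192, 0.0738 and 1). Rgs3 scored 0.653 to 1.68 at 500 ppm. Mvd, of cholesterol synthesis, was 0.17 higher than at 500 ppm (adjusted p = 0.030), with 0.02 against the controls. Without triadimefon 0 probe sets were called against 500 ppm in either direction, as in a 2-group fit, and without myclobutanil 97 were higher. The 3′–5′ difference was 0.47 to 0.58 with triadimefon at 500 ppm and 1.16 to 1.86 at 1800 ppm. Of the triadimefon animals, 0 at 500 ppm and 3 at 1800 ppm were numbered above 3000. Myclobutanil at 500 ppm had 0.52 to 2.45, with 2 arrays of a GAPDH difference above 0.9, and propiconazole 0.56 to 0.84. The part of these properties in the calls against 500 ppm was not tested. The counts also changed with the arrays kept: 704 were higher and 67 lower among animals numbered below 3000, and 3219 and 257 without the arrays of a high 3′–5′ difference. With quantile normalisation added to that omission, a setting chosen after seeing the data, they were 906 and 603.

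Leaving out the arrays of a high 3′–5′ difference made the median fall smaller. Then 9 treated arrays and 3 controls were left, with 1 triadimefon array, which was assumed to vary like the other groups. The differences of the 113 risen probe sets were then a median 0.951 times those of all arrays, and those of the 131 fallen 0.741 times. The fit called 457 higher and 224 lower, of which 58 and 39 were among the probe sets called with all arrays. Of the 44 genes and probe sets chosen by the naming rule or for their size, this ended the calls of Cyp1a1, Gsta3, Cidea, Ugt2a1, Gstm3, Abcb1a, Cyp26a1, Epcam, Mtmr7, Fabp5, Angptl4, Cyp4a1, Cyp7b1, Pc, Hal, Glul and 1377015_at (adjusted p from 0.0603 to 0.397), and Sqle missed the pooled test (0.263). Without propiconazole the calls of Scd, Akr7a3, Cyp4a8, Fabp5, Gstm3, Cyp7b1, Hal, Glul, Cyp4a1, Ddc, Por, Alas1 and 1377015_at were lost (adjusted p from 0.0521 to 0.221), and without myclobutanil those of Angptl4, Cyp4a1 and Glul (0.112 to 0.227). Without triadimefon those of App, Epcam, Alas1, Por and Gadd45b were lost (0.0632 to 0.248).

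Other settings ended calls of the same 44. With the replicate number as a block, 25 that had passed the pooled test missed it (adjusted p from 0.0709 to 0.388). Those with a positive difference were Ahr (0.146), Ephx1 (0.118), Abcb1a, Acat2, Alas1, Cyp26a1, Cyp4a8, Ddc, Gadd45b, Gstm3, Por, Sqle and Ugt2a1. The falls were Angptl4, Cyp4a1, Cyp7b1, Fabp5, Glul, Hal, Lrtm2, Mtmr7, Pc, Pklr, Scd and 1377015_at. The 2-group fit ended those of Ephx1, Gsta3, Gstm3, Abcb1a, Cyp4a8, Cyp4a1, Cyp7b1, Alas1, Por, App, Ddc, Epcam, Gadd45b, Scd, Pc, Hal, Angptl4, Glul and 1377015_at (adjusted p from 0.0501 to 0.416). Within the animals numbered below 3000, where triadimefon again has 1 array, those of Pklr, Dmxl2, Lrtm2, Alas1, Por, Gsta3, Gstm3, Abcb1a, Cidea, Cyp1a1, Cyp26a1, Cyp4a1, Cyp7b1, Ugt2a1, Scd, Fabp5, Mtmr7, Angptl4, Epcam, Pc, Hal, Glul and 1377015_at were lost (adjusted p from 0.0614 to 0.414). The difference of Pklr was then -0.52 and that of Lrtm2 -0.56 (both adjusted p = 0.0889), and that of Dmxl2 was -0.47 (adjusted p = 0.0614). With the animal number series as a block, Glul, Ddc, Por and Alas1 missed the threshold (adjusted p = 0.0596, 0.0689, 0.0758 and 0.0803). With a covariate for the 3′–5′ difference, Cyp26a1, Hal, Angptl4, Glul, Cyp4a1, Ddc and 1377015_at did (0.061 to 0.109), and in a fit of the high-level and control arrays alone, Pc, Angptl4, Gadd45b, Hal and Ddc did (0.0506 to 0.11).

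Within the animals numbered above 3000, 3 triadimefon livers against 3 controls, Cyp2b had a difference of 2.79 ± 0.179, Cyp1a1 2.77 ± 0.162, Abcc3 0.86 ± 0.072, Scd -1.71 ± 0.440 and Apoa4 -1.67 ± 0.237. There, Cyp2b, Cyp1a1 and Abcc3 had an adjusted p of 0.0484, Scd of 0.431 and Apoa4 of 0.175. Across 15 other settings and 19 omissions of single arrays, 16 of the 113 rises and 13 of the 131 falls kept their call each time. The rises among them include Cyp2b, Aldh1a1, Ces2c, Ugt2b1, Abcc3, Scpep1, Htatip2, Nceh1 and a probe set of App, and the falls 1379888_at, Apoa4, Arrdc3, Rgs3, Crem and both probe sets of Il33.

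**Figure D5:**
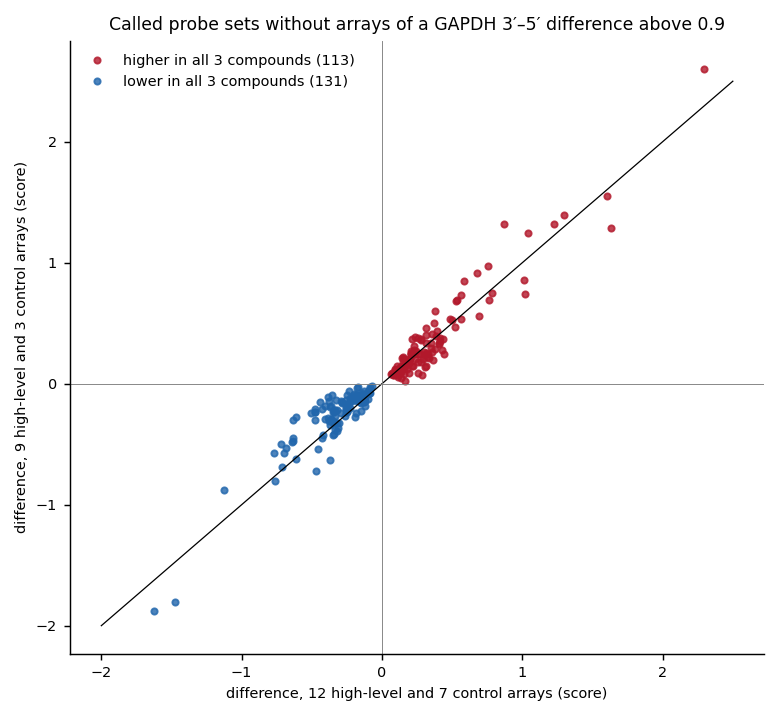
Difference from controls of the 244 called probe sets with 12 high-level and 7 control arrays (x axis) and without the arrays of a GAPDH 3′–5′ difference above 0.9 (y axis), with a line of equality. Most blue points (lower) lie nearer to 0 on the y axis, with a median ratio of 0.741, than red points (higher), with 0.951.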

How the data were processed

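The deposited table holds a score for each of 31099 probe sets on each array. The method by which the authors made the deposited score was not given in the sources used here. The arrays were biotin-labelled cRNA hybridisations, per the labels' protocols. The 57 Affymetrix control probe sets were left out, which left 31042. The platform annotation gave 1 symbol to 20826, several to 436 and no symbol to 9780. For 20758 of the first, the Entrez identifier was found among rat genes, and 0 symbols changed. Each of 14217 genes was represented by its probe set of highest mean score. The scores of 32 arrays in 7 groups were fitted with limma 3.58.1 in R 4.3.3 (package data.table in version 1.17.8) and the contrast tested two-sided with Benjamini-Hochberg adjustment (threshold 0.05) and 95% intervals. The number of arrays limits the precision, and p-values measure the spread between these animals.

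Named were the 12 largest rises and 12 largest falls among called genes, up to 2 called members of smallest p of each list, up to 3 genes of unlike sign, the 4 largest rises and falls against 500 ppm, and Cyp2b, Cyp1a1, Cyp3a23-3a1 and Cyp51. Other names were chosen after their values were seen, as said beside them or by their place in a list. Members, lists and tests were chosen with earlier results of these data known, so the lists are no independent evidence.

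On simulated scores of 31042 probe sets the pooled fit found 95% of the shifted ones at a shift of 0.5 and 99% at 1, with 10 false calls among 204. These rates describe the simulated scores only. Whether they carry over to the deposited arrays, which differed from the controls across many probe sets, was not tested. Shifted probe sets were drawn at random, and the median SE was 0.0321, against 0.338 for Scd. Arrays within a group correlated at 0.933 to 0.996 and none were identical. Alternatives changed the groups fitted, normalisation, filter, number series, 3′–5′ difference, compounds and single arrays.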

Additional observations from a re-analysis of the deposited data

Results flagged for a closer look

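A sample far from the others of its group was looked for in 176 groups of 4 to 7 arrays, 4 for each of 44 named items, where chance alone flags about 1 in 20. In all, 11 such values were found. Control replicate 7 stood low for Aldh1a1 (0.888, the other controls 1.83 to 2.09), Scpep1 (0.989, the others 1.18 to 1.31) and Rgs3 (0.849, the others 1.55 to 2.05). It is 1 of the arrays of a high 3′–5′ difference.

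Myclobutanil replicate 5 stood apart for 1379888_at (1.13, the other myclobutanil arrays -0.082 to 0.101), Abcb1a (-0.017, the others 0.370 to 0.424) and Cyp4a1 (2.35, the others 1.86 to 1.94). In each of the 3 it lay on the side of the controls.

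Myclobutanil replicate 4 stood high for Akr7a3 (3.09, the others 2.59 to 2.6). With propiconazole, replicate 1 stood high for Cidea (2.01, the others 1.23 to 1.35), replicate 3 for Ahr (0.610, the others 0.405 to 0.431) and replicate 4 for Abcc3 (0.843, the others 0.227 to 0.314). With triadimefon, replicate 3 stood high for Ugt2a1 (0.867, the others 0.547 to 0.598).

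For Cyp51, all 4 myclobutanil arrays lay below the control mean of 3.12 and all 4 triadimefon arrays above it. Neither compound's difference from controls passed (-0.36 with adjusted p = 0.387 and 0.93 with adjusted p = 0.0878, limma). The levels of the compounds differ, and this difference was not tested.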

How the results depend on the processing

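Counts are given as higher and lower against controls (113 and 131 with all arrays and settings as reported), then higher and lower against 500 ppm (31 and 0). One pooled treated group in a 2-group fit gave 40 and 75, then 0 and 0. Quantile normalisation gave 262 and 221, then 44 and 4, and the animal number series as a block 95 and 94, then 24 and 0. Animals numbered below 3000 gave 189 and 74, then 704 and 67. The 3′–5′ difference as a covariate gave 149 and 78, then 48 and 4, and leaving out its high arrays 457 and 224, then 3219 and 257. With quantile normalisation, chosen after seeing the data, these became 243 and 159, then 63 and 9, and 499 and 323, then 906 and 603. Without myclobutanil 139 and 58, then 97 and 0 were called, without propiconazole 65 and 52, then 22 and 0, and without triadimefon 407 and 2082, then 0 and 0. In these fits only the compounds kept had to share a sign against controls, a looser rule. Only the arrays of the groups compared gave 90 and 143, then 22 and 3, a trend with robust fit 112 and 134, then 42 and 1, and removal of the dimmest 40% 108 and 130, then 36 and 0. Leaving out single arrays gave 73 to 218 and 69 to 516 against controls, and 14 to 57 and 0 to 6 against 500 ppm. The extremes were 218 and 516 without control 3, 73 and 76 without control 7, and 78 and 69 without control 4. The cause was not tested. The replicate block gave 45 and 31, then 39 and 0. Same-number deviations of 22 pairs correlated at a median of -0.0101, with 7 over 0.1. For 110 pairs of unlike numbers the median was 0.0308, with 36 over 0.1. Whether equal numbers stand for a shared batch was not tested. Without triadimefon, Cyp51 turned to -0.21 and Cyp3a23-3a1 to -0.0219.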
